A study of Rattus norvegicus with 36 samples.

Results

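The transcripts described here are the genes that fell in cultured rat pineal glands after norepinephrine (NE) and also after dibutyryl cyclic AMP (DBcAMP), a form of cyclic AMP that enters cells. They were chosen on measured values. A gene's counts were scaled to a library total of 1000000 read-pairs on genes (CPM), each group was given the median of its 3 libraries, and groups were compared as the log2 ratio of CPM + 0.5. A gene was a member when this ratio was -0.8 or lower for NE against Untreated and for DBcAMP against Untreated, and Untreated glands held at least 1 CPM. Genes at -1.5 or lower at night against day in both Control and Sham glands were left out. Of 29516 annotated genes, 13374 held at least 1 CPM in Untreated glands, 342 met the culture limits, 30 of these were left out for their fall at night, and 312 were members.

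All animals were Sprague-Dawley rats kept in a cycle of 14 hours of light and 10 of dark. For the in vivo samples, pups of both sexes were operated on at postnatal day 5, and pineal glands were taken at day 40, at mid-day (ZT7) or at midnight (ZT19). Control rats had no surgery, Sham rats had the ganglia laid bare by blunt dissection and nothing more, SCGX rats lost both superior cervical ganglia, and in DCN rats the ganglia stayed in place but their central input was cut (decentralization). For culture, glands of female rats aged 2 to 3 months were kept for 48 hours and then left untreated or treated for 6 hours with 1 μM NE or 500 μM DBcAMP. Each of these 11 conditions had 3 libraries of stranded, ribo-depleted RNA. Every library was a pool of glands, so the replicate is a pool and a value cannot be assigned to 1 animal. A separate set of 3 single libraries held pineal glands at ZT7, pineal glands at ZT19, and a mixture of 15 other tissues at ZT7.

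The pineal gland makes melatonin at night. Its sympathetic nerves come from the superior cervical ganglia and release norepinephrine in darkness, which acts on adrenergic receptors, and raises cyclic AMP, which starts the nightly rise of melatonin synthesis. The transcripts described here are those that go down under the same agents. Removal of the ganglia takes the nerves away, whereas decentralization leaves the nerves but ends the nightly command from the brain.

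Library totals lay between 12985072 and 18504240 read-pairs on genes in vivo and between 12556861 and 18524435 in culture. A set of 409 genes with at least 20 CPM in mixed tissue and at least 100 times the mean level of the single pineal libraries served as a gauge of RNA from other tissues. These genes summed to 2150 CPM in DCN day replicate 1 and 2012 CPM in Sham night replicate 3, against 105 to 175 CPM in the other 22 in vivo libraries and 94030 CPM in mixed tissue. Only 4 members belong to that set. The main counts and medians that use these libraries are also given without them, and their part in the results for single genes is given only where stated. In whole glands, fewer cells of a type and less RNA per cell cannot be told apart.

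In culture the members together held 1.31%, 1.27% and 1.31% of the read-pairs of the 3 Untreated libraries. They held 0.646%, 0.619% and 0.62% in NE and 0.574%, 0.645% and 0.622% in DBcAMP, and no treated library overlapped the untreated ones. The median member stood at a log2 ratio of -0.99 after NE (range -2.69 to -0.80) and -1.09 after DBcAMP (range -2.74 to -0.80). Over all 13374 genes the same medians were -0.13 and -0.19. Both ratios share the Untreated libraries, and they chose the members, so they are a description. At the limit, the 3 genes just inside had weaker values (the one of the 2 ratios nearer to 0) of -0.801, -0.8009 and -0.8006, and the 3 just outside had -0.7983, -0.7978 and -0.7977. The values thus run on without a gap at the limit. TMM scaling takes the medians of all genes to -0.04 and -0.05 and keeps 180 genes, 176 of them among the 312.

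**Figure D1:**
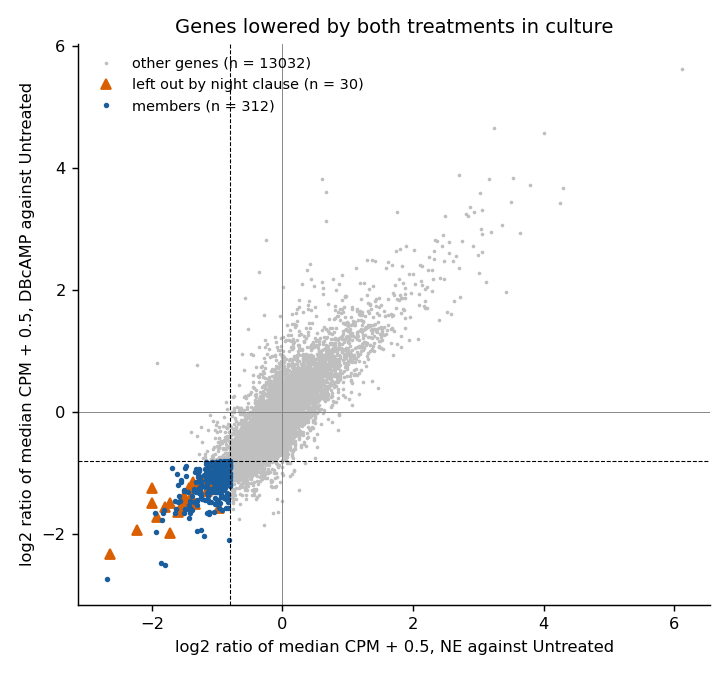
Each point is a gene with at least 1 CPM in Untreated glands, placed by its log2 ratio of median CPM + 0.5 for NE against Untreated (x) and DBcAMP against Untreated (y), with the limits of -0.8 dashed. The 312 members (dark points) fill the corner below both limits together with the 30 genes left out for their fall at night (triangles), and every other gene lies above at least 1 limit.

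Most members fell by a moderate amount. No member varied more than 4-fold (in CPM + 0.5) between the 3 Untreated libraries, and 1 did so in NE and 1 in DBcAMP. This limit is wide, and the share of all genes beyond it was not taken. All 3 NE libraries lay below all 3 Untreated libraries for 294 of 312 members, where 36.3% of the 13374 genes did so. For DBcAMP the count was 301, where 43.8% of genes did so. In the model fitted to all genes (edgeR, adjusted p under 0.05), 295 members were called lower after NE, beside 16.1% of all genes tested, and 302 after DBcAMP, beside 22.5%. These counts follow from the choice of members, and nothing is read from them.

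The 2 strongest members show the size of the response. Gene ENSRNOG00000005159 read 74.8, 90.9 and 69.8 CPM in Untreated glands, 9.16, 11.2 and 14 CPM after NE, and 10.8, 19.2 and 10.7 CPM after DBcAMP. Every treated library was far below every untreated one, at log2 ratios of -2.69 and -2.74. Gene ENSRNOG00000016873 read 119, 111 and 138 CPM in Untreated glands, 36.6, 30.5 and 29.9 CPM after NE, and 27.6, 30.2 and 30.2 CPM after DBcAMP, so its groups did not overlap either. The deposited tables pair no names with these identifiers and give no coordinates, so the products of these genes are not stated.

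Members tended to be less abundant than other genes. Per unit of gene length, the median member had 6.75 RPKM (read-pairs scaled by gene length and library total) in Untreated glands, against 13.4 RPKM over the 13374 genes, the upper quartile of the members was 14.8 RPKM, and 10% of members were above 48.8 RPKM. The 5 highest members had median levels of 366, 318, 169, 158 and 153 RPKM. The second of these carried 1371, 1393 and 1408 CPM in Untreated glands, the largest number of read-pairs of any member, and 777, 690 and 780 CPM after NE. Gene length did not set the members apart in the middle of the distribution, with a median of 1971 bases against 2032 over all 13374 genes.

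The 2 treatments were then compared with each other. The rule required a fall with both agents and so removed genes lowered by only 1 of them, which shapes these counts, and they are a description of the members only. Of 305 members tested, 8 were higher after NE than after DBcAMP (1.61% of all genes tested were) and 1 was lower (4.46% of all genes tested were). The median log2 difference was 0.09 over the members and 0.01 over all genes tested. The member that differed most, with a log2 fold change of 1.5 ± 0.28 (SE) and an adjusted p of 0.00609, read 2.63, 3.45 and 4.56 CPM after NE and 1.11, 1.35 and 1.14 CPM after DBcAMP. The third largest belonged to the fourth strongest member in culture, which read 13.6, 22.5 and 12 CPM after NE and 6.05, 8.17 and 9.72 CPM after DBcAMP (adjusted p = 0.025). The 1 member that was lower after NE differed by a log2 fold change of -0.32. The count of 9 fell to 1 without DBcAMP replicate 1, 4 without NE replicate 1, 3 without NE replicate 2 and 4 without NE replicate 3.

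In glands with intact innervation the members stood lower at night. They held 1.40%, 1.48% and 1.42% of read-pairs in Control day libraries and 1.25%, 1.06% and 0.976% in Control night libraries. In Sham glands they held 1.52%, 1.53% and 1.49% by day and 0.941%, 1.05% and 0.908% by night. The day and night libraries did not overlap in either group, and the mean fell from 1.43% ± 0.0416 (SD, n = 3) to 1.1% ± 0.14 in Control and from 1.51% ± 0.0208 to 0.966% ± 0.0743 in Sham. Because the rule reads the Control and Sham ratios to leave genes out, these values are a description, and the 30 genes left out make the fall smaller than it would be with them.

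**Figure D2:**
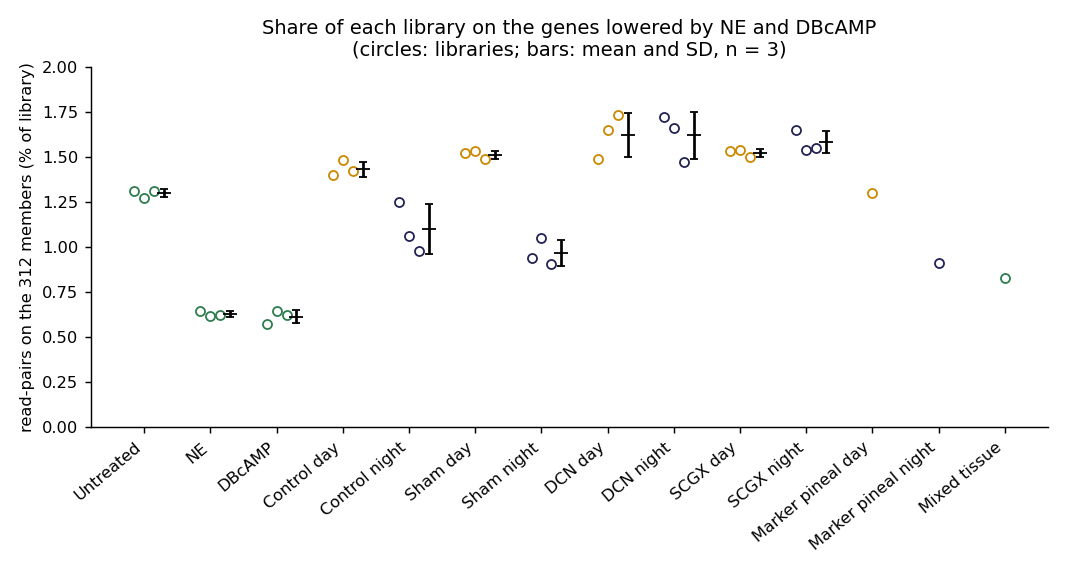
Share of each library's read-pairs that fell on the 312 members (percent, y) by group, with 1 circle per library and the mean and SD of groups of 3 beside them. NE and DBcAMP libraries lie between 0.574% and 0.646%, Control and Sham night libraries lie below their day libraries, and DCN and SCGX libraries lie between 1.47% and 1.73% at both times.

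Gene by gene, the median member had a night against day log2 ratio of -0.64 in Control and -0.70 in Sham, against -0.20 and -0.16 over all 13374 genes. TMM scaling takes the medians of all genes to about 0 (-0.005 and -0.01) and those of the members to -0.50 and -0.59. The range was wide, from -5.08 to 3.38 in Control. The ratio was below 0 for 88.5% of members in Control, where 68.2% of the 13374 genes were. In Sham it was below 0 for 89.1% of members, where 65.6% of genes were. It was below 0 in both groups for 261 members. At -0.8 or lower in both groups there were 87 members, above -0.2 in both there were 33, and above 0 in both there were 19. Shares of all genes were not taken for these counts over both groups, so the counts are a description only. All 3 night libraries lay below all 3 day libraries for 202 members in Control, beside 40.4% of the 13374 genes, and for 198 in Sham, beside 32.3%. The edgeR fit called 153 of 307 members lower and 14 higher at night in Control (17.1% and 18.2% of all genes tested) and 127 of 309 lower and 2 higher in Sham (11.2% and 9.35%). Without Sham night replicate 3, 107 of 307 members were lower and 2 higher in Sham, the median ratio was -0.71 (-0.18 over all genes), and 225 members did not overlap between night and day, beside 43.5% of genes.

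The strongest member in culture, ENSRNOG00000005159, read 85.1, 76.0 and 46.1 CPM in Control by day and 6.62, 1.76 and 1.57 CPM by night. In Sham it read 71.3, 22.0 and 18.9 CPM by day and 2.13, 18.2 and 7.87 CPM by night, so that the Sham groups came close to each other but did not overlap. ENSRNOG00000016873 read 115, 86.2 and 96.2 CPM in Control by day and 58.9, 58.4 and 57.9 CPM by night, with no overlap and little spread between night pools.

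A few members ran the other way in the gland. The clearest carried 24.7, 36.2 and 25.2 CPM in Control by day and 191, 149 and 170 CPM by night, and 33.5, 62.5 and 48.8 CPM in Sham by day and 176, 139 and 151 CPM by night. In culture the same gene read 18.9, 16.0 and 11.5 CPM untreated, 8.17, 10.3 and 8.91 CPM after NE and 6.29, 6.6 and 11.1 CPM after DBcAMP. Its level was thus higher at night in vivo and lower with either treatment in culture, and the untreated cultured glands were below its day level in Control glands.

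The single pineal libraries of the marker set played no part in the choice of members and give a separate look at night and day, without replicates. The members held 1.30% of read-pairs at ZT7 and 0.911% at ZT19. Their median log2 ratio of night against day was -0.62, against -0.18 over all 13374 genes. At -0.5 or lower there were 189 of 312 members (60.6%), where 22.4% of the 13374 genes were that low, and 261 members (83.7%) were below 0, where 67.6% of genes were. With median-of-ratios scaling the member median was -0.42 and that of all genes 0.03, so the distance between them stayed near -0.44 (-0.46 with this scaling). ENSRNOG00000005159 read 50.5 CPM by day and 8.63 CPM by night, and ENSRNOG00000016873 read 174 and 80.1 CPM.

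Sorted by their Control ratio, the members had the same order of medians in these libraries. The 119 members at -0.8 or lower in Control had a median marker ratio of -0.86, the 87 members between -0.8 and -0.4 had -0.62, the 70 members between -0.4 and 0 had -0.31, and the 36 members above 0 had -0.08. In culture the 4 classes had median NE ratios of -1.0, -0.99, -0.95 and -0.99. Their median DBcAMP ratios were -1.15, -1.07, -1.02 and -1.08. The rule held both culture ratios at -0.8 or lower, which narrows such differences, so nothing is read from their closeness. These classes were cut from measured values and are given as a description.

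**Figure D3:**
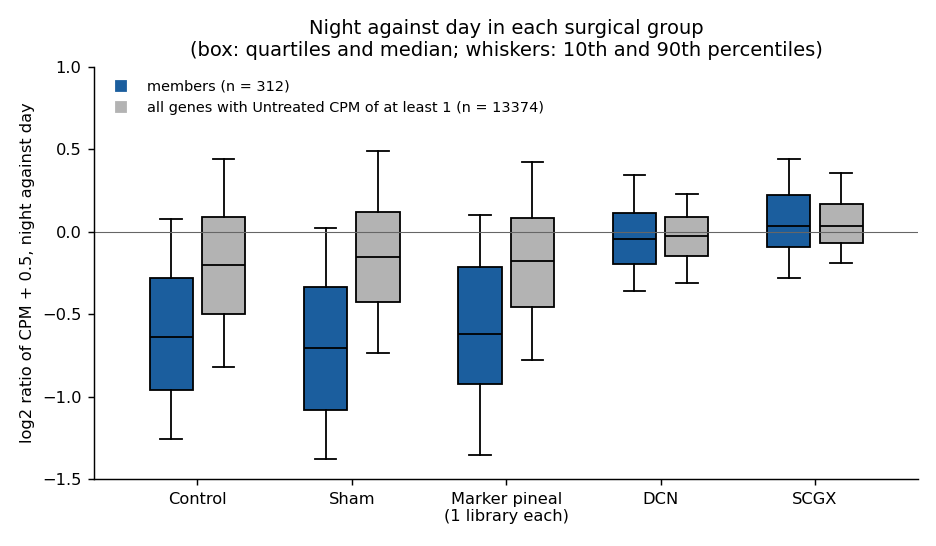
Log2 ratio of CPM + 0.5, night against day, for the 312 members (dark boxes) and all 13374 genes (grey boxes) in each surgical group and in the single marker libraries. Boxes show quartiles and medians, and whiskers the 10th and 90th percentiles. The members' medians are -0.64, -0.70 and -0.62 in Control, Sham and marker glands and lie close to 0 in DCN (-0.04) and SCGX (0.04).

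Night and day were next compared within each group of operated rats, whose libraries the rule did not use. In DCN glands the members held 1.49%, 1.65% and 1.73% of read-pairs by day and 1.72%, 1.66% and 1.47% by night, and the groups overlapped. No member of 310 passed the edgeR test in DCN, where 0.0% of 15928 genes passed. At an unadjusted p under 0.05 there were 20 members and 1431 genes, and DESeq2 called 2 members. The median member changed by -0.01 on the log2 scale, as did all genes (-0.01). Without DCN day replicate 1 no member was called either, with 18 members and 1051 genes at an unadjusted p under 0.05.

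In SCGX glands the members held 1.53%, 1.54% and 1.5% of read-pairs by day and 1.65%, 1.54% and 1.55% by night. Of 307 members tested, 5 were higher at night (1.02% of all genes tested were) and 2 lower (0.83% were), and the median member did not move (0.00). With all 24 in vivo libraries in 1 model, 0 members were called in this comparison, which ends each of the calls named next. The largest rise, 1.91 ± 0.30 (SE) on the log2 scale with an adjusted p of 0.0211, belonged to a member that read 48.7, 49.9 and 24 CPM by day and 204, 97.5 and 174 CPM by night. The same member varied strongly between pools elsewhere, with 160, 4.44 and 15.8 CPM in Control night libraries. The second largest rise, 0.84 (adjusted p = 0.0211), belonged to the member described above as higher at night in Control and Sham, which read 144, 110 and 114 CPM by day and 189, 262 and 225 CPM by night in SCGX. Its day median was thus 114 CPM in SCGX, against 25.2 CPM in Control. In DCN its medians were 230 CPM by day and 220 CPM by night. The count of 7 calls in SCGX became 2 without SCGX day replicate 1, 1 without SCGX day replicate 3 and 11 without SCGX night replicate 2. The difference between the night effects of SCGX and DCN was tested as an interaction, and 0 of 310 members were called by edgeR (0 of 15779 genes), with 26 members and 1665 genes at an unadjusted p under 0.05.

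At night the members were higher in operated than in Sham glands. The rule used Sham night libraries only to leave out the genes that fell most, and it used no library of DCN or SCGX rats. The members held 1.72%, 1.66% and 1.47% of read-pairs in DCN night libraries and 1.65%, 1.54% and 1.55% in SCGX night libraries, all above the highest Sham night library (1.05%). In DCN night against Sham night, 114 of 310 members tested were higher and 1 lower, where 8.98% and 8.09% of all genes tested were called in those directions. In SCGX night against Sham night, 139 of 311 were higher and 3 lower, where 11.6% and 9.13% of all genes were called. Both comparisons use the same Sham libraries and are not independent of each other.

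The shift was moderate in size and broad. The median member was higher by 0.69 on the log2 scale in DCN (quartiles 0.35 and 1.05) and by 0.65 in SCGX (quartiles 0.32 and 1.02), where the medians of all genes tested were 0.03 in both. The fold change was above 0 for 88.1% of members in DCN and 87.5% in SCGX, against 53.1% and 53.0% of all genes tested. All 3 Sham night libraries lay below all 3 DCN night libraries for 210 of 312 members, beside 35.5% of the 13374 genes, and below all 3 SCGX night libraries for 221, beside 37.0%. With library size as the only scaling, the medians of all genes rose to 0.14 and 0.13, those of the members to 0.80 and 0.75, and the split of all calls went from 1431 higher and 1290 lower to 2635 and 1129 in DCN and from 1848 and 1451 to 3037 and 1227 in SCGX. With median-of-ratios size factors the split turned the other way, to 992 higher and 1407 lower in DCN and 1235 and 1568 in SCGX, with medians of all genes of -0.03 in both, while the members had medians of 0.63 and 0.58 and 95 higher with 1 lower in DCN and 117 with 3 in SCGX.

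**Figure D4:**
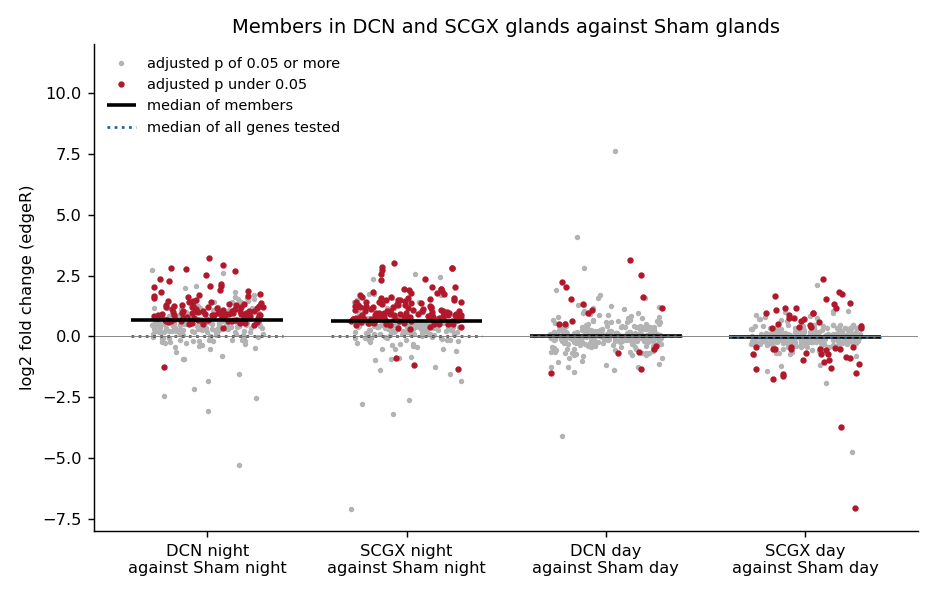
Log2 fold change (edgeR) of each member in DCN or SCGX glands against Sham glands at the same time of day, with members at an adjusted p under 0.05 in a dark colour, the median of the members as a solid line and that of all genes tested as a dotted line. At night the medians of the members are 0.69 (DCN) and 0.65 (SCGX), and by day they are 0.03 and -0.03.

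The counts at night were also taken without single libraries. Without Sham night replicate 3, the library with RNA of other tissues, 89 members were higher and 2 lower in DCN and 128 higher and 5 lower in SCGX, with member medians of 0.63 and 0.57. All genes then split into 1018 higher and 1693 lower in DCN and 1627 and 2329 in SCGX. With Control night libraries in place of Sham night, 131 were higher and 5 lower in DCN and 149 higher and 10 lower in SCGX. Calls over all genes rose as well, to 1986 higher and 2294 lower of 15586 in DCN and 2500 and 2704 of 15535 in SCGX. Leaving out 1 DCN night library gave 60, 62 or 67 calls in place of 115, and leaving out 1 SCGX night library gave 73, 78 or 71 in place of 142. Over all genes these fits gave 592, 543 or 681 higher and 720, 702 or 883 lower in DCN. In SCGX they gave 799, 849 or 749 genes higher and 803, 837 or 780 lower.

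ENSRNOG00000005159 had the largest change of the members called higher in both operated groups. It read 104, 123 and 63.6 CPM in DCN night libraries, 120, 61.9 and 66.6 CPM in SCGX night libraries, and 2.13, 18.2 and 7.87 CPM in Sham night libraries, with no overlap. Its log2 fold changes were 3.23 ± 0.66 (SE, adjusted p = 0.0198) in DCN and 3.01 ± 0.66 (adjusted p = 0.0213) in SCGX, and its operated night values (61.9 to 123 CPM) overlapped its Control day values (46.1 to 85.1 CPM). The call in DCN was lost without DCN night replicate 1 (adjusted p = 0.0648) or 2 (0.0707), and that in SCGX without SCGX night replicate 1, 2 or 3 (0.0832, 0.0546 and 0.0626). Without Sham night replicate 3 its log2 fold changes were 3.02 (adjusted p = 0.0372) and 2.78 (adjusted p = 0.0299). ENSRNOG00000016873 changed less but more evenly, from 46.9, 57.8 and 46.4 CPM in Sham night to 121, 108 and 134 CPM in DCN night and 121, 111 and 112 CPM in SCGX night. Its fold changes on the log2 scale were 1.15 (adjusted p = 0.00329) and 1.08 (adjusted p = 0.00146). Without Sham night replicate 3 they were 1.00 and 0.92 (adjusted p = 0.00564 and 0.00124). By day ENSRNOG00000016873 was called higher in SCGX than in Sham as well (0.43, adjusted p = 0.00833). It read 137, 128 and 128 CPM in SCGX day against 102, 89.5 and 104 CPM in Sham day. In DCN day it was not called (0.12, adjusted p = 0.4).

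Among the other members that were called higher in both operated groups, ENSRNOG00000028814 and ENSRNOG00000031175 had the largest changes by the smaller of the 2 values, an order set after the values were seen. ENSRNOG00000031175 read 0.814, 0.757 and 0.638 CPM in Sham night, 7.05, 6.72 and 4.80 CPM in DCN night and 5.01, 4.70 and 6.32 CPM in SCGX night, with no overlap. Its log2 fold changes were 2.94 ± 0.29 (SE, adjusted p = 0.00163) and 2.73 ± 0.27 (adjusted p = 0.00116), and it is a short transcript model of 264 bases with low counts.

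ENSRNOG00000028814 read 26.2, 23.0 and 11.3 CPM in Sham night, 34.5, 229 and 190 CPM in DCN night and 220, 96.5 and 146 CPM in SCGX night. The groups did not overlap, and its log2 fold changes were 2.77 (adjusted p = 0.0366) and 2.81 (adjusted p = 0.00493). The call in DCN was lost without DCN night replicate 2 or 3 (adjusted p = 0.111 and 0.102) or without Sham night replicate 1, 2 or 3 (0.0726, 0.098 and 0.0689). Its Control night pools, however, read 204, 7.43 and 26.6 CPM, and against these the log2 differences were 0.75 (adjusted p = 0.629) and 0.79 (adjusted p = 0.536). Its rise was called against Sham night and not against Control night. In the single marker libraries it was higher by night (108 CPM) than by day (64.5 CPM).

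**Figure D5:**
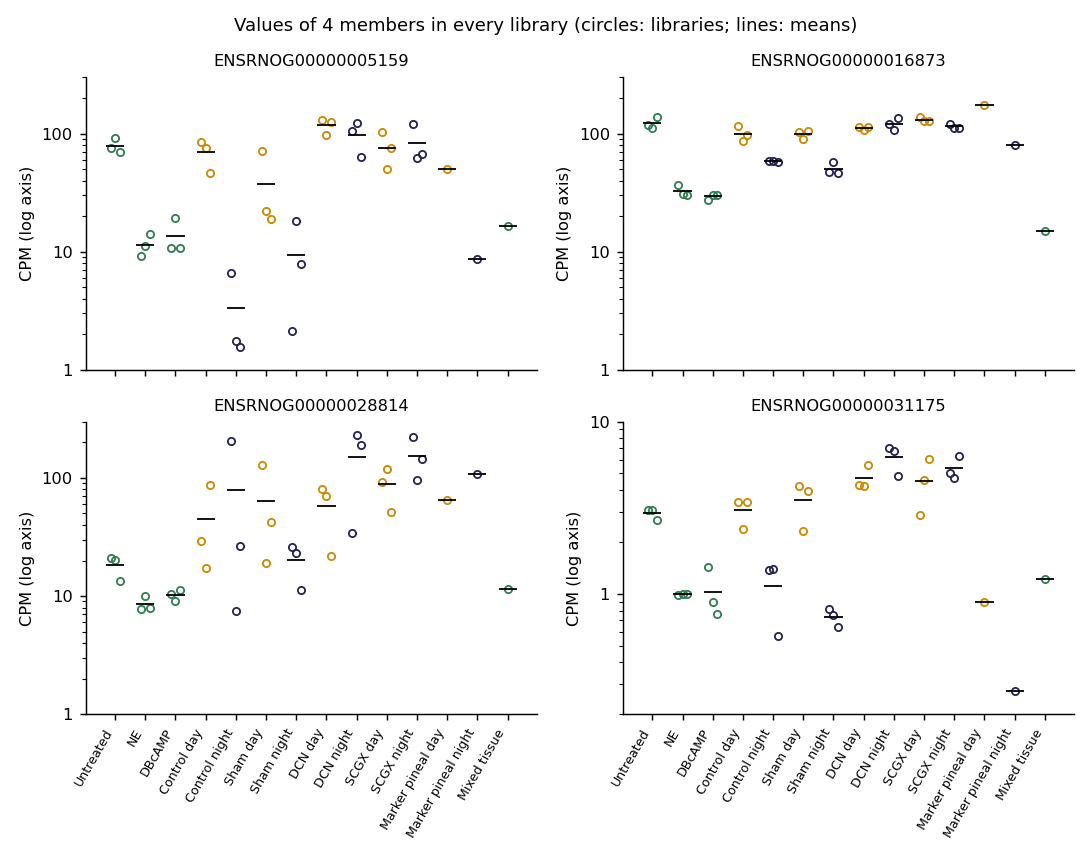
CPM (log axis) of the 4 identified members in every library, with 1 circle per library and a line at the mean of each group. ENSRNOG00000005159, ENSRNOG00000016873 and ENSRNOG00000031175 are lower in NE, DBcAMP, Control night and Sham night libraries than in Untreated, Control day, DCN and SCGX libraries, whereas ENSRNOG00000028814 spreads widely between pools (7.43 to 204 CPM in Control night).

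Members that fell further at night in Control glands were further above Sham in operated glands. The Control libraries take no part in the comparison with Sham, but the rule read Control and Sham together when it left genes out. The 119 members at -0.8 or lower in Control had a median log2 fold change of 0.89 in DCN night and 0.80 in SCGX night against Sham night, and 58 and 71 of them were called higher. The 87 members between -0.8 and -0.4 had medians of 0.76 and 0.71, with 42 and 50 called higher. The 70 members between -0.4 and 0 had 0.48 and 0.42, with 11 and 13 called, and the 36 members above 0 had 0.30 and 0.17, with 3 and 5 called. Of all genes tested, 8.98% were called higher in DCN night and 11.6% in SCGX night. No test was made of this order, which is a description. All genes were not sorted in this way, so the order cannot be called particular to the members.

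The most abundant member by read-pairs, at 1032, 1130 and 754 CPM in Sham night, read 2074, 2015 and 1852 CPM in DCN night and 1840, 1945 and 1782 CPM in SCGX night. Its log2 fold changes were 0.91 (adjusted p = 0.0171) and 0.82 (adjusted p = 0.0176). The member with the highest level per length ran against this. It read 943, 1888 and 1363 CPM in Sham night, 755, 708 and 457 CPM in DCN night and 733, 608 and 650 CPM in SCGX night, and it was the 1 member called lower in DCN (-1.24, adjusted p = 0.0294). It was called lower in SCGX night too (-1.18, adjusted p = 0.0164), and its Control values overlapped between day (932, 1523 and 1181 CPM) and night (1506, 1321 and 1166 CPM). By day it was also lower in DCN, at 499, 585 and 653 CPM against 1800, 1060 and 1330 CPM in Sham (-1.33, adjusted p = 0.0335). Its SCGX day median was 564 CPM. The lower level in operated glands was thus not confined to night.

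By day the members of operated glands went both ways against Sham, with medians near 0. These were 0.03 in DCN day and -0.03 in SCGX day against Sham day, and those of all genes tested were 0.02 and -0.01. In DCN, 13 of 310 members were higher and 6 lower, where 1.13% and 1.41% of all genes tested were called. In SCGX, 27 of 308 were higher and 28 lower, where 6.58% and 4.83% were called. Without DCN day replicate 1, the library with RNA of other tissues, 15 were higher and 6 lower, but without DCN day replicate 2 only 1 call was left, without DCN day replicate 3 there were 2, and without Sham day replicates 1, 2 and 3 there were 7, 2 and 3. For SCGX, 31 calls were left without SCGX day replicate 2 and 30 without SCGX day replicate 3.

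Single members stood out by day. The largest change in SCGX that was called upward, 2.36 ± 0.22 (SE, adjusted p = 0.000787), belonged to a member at 7.61, 10.3 and 5.25 CPM in Sham day and 43, 39 and 35.7 CPM in SCGX day. It read 32.3, 36.6 and 30.8 CPM in DCN day (2.04, adjusted p = 0.0174), so it was high in operated glands by day as well as by night (23.0, 24.8 and 25.1 CPM in SCGX night). It was also 1 of the 2 members that fell at night within SCGX, by 0.73 on the log2 scale (adjusted p = 0.0069).

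Another member, at 29.0, 37.4 and 34.6 CPM in Sham day, read 190, 142 and 164 CPM in DCN day (2.24, adjusted p = 0.00347) and 103, 79.5 and 67.8 CPM in SCGX day (1.33, adjusted p = 0.00224). Its level in Untreated cultures was 125, 139 and 121 CPM, nearer to that of operated glands than to the 36.5, 35.3 and 21.8 CPM of Control day. The single marker library of pineal glands at ZT7, neither operated nor cultured, was also high at 135 CPM, and mixed tissue read 252 CPM. In the other direction, a member at 21.5, 11.6 and 36.2 CPM in Sham day read 3.30, 0.785 and 1.00 CPM in SCGX day (-3.71, adjusted p = 0.00693). The member with the lowest fitted fold change had no read-pairs in any SCGX day library and only 1.37, 0.794 and 1.11 CPM in Sham day, on a gene model of 93 bases, so its value is not interpreted.

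The single libraries also place the members among tissues. At ZT7, 103 of 312 members (33%) were lower in pineal glands than in mixed tissue, where 43.8% of the 13374 genes were, and the median log2 ratio was 0.44, against 0.11 over the 13374 genes. At least 8-fold higher in the pineal gland were 16 members (5.13%), where 1.09% of genes were, and at least 8-fold higher in mixed tissue were 10 members (3.21%), where 3.09% of genes were. The most pineal-enriched member, the ninth strongest in culture, read 102 CPM in the gland and 1.04 CPM in mixed tissue. In culture it read 46.1, 54.2 and 47.8 CPM untreated and 15.7, 11.9 and 13.3 CPM after NE. In vivo its Control values were 146, 304 and 184 CPM by day and 364, 272 and 219 CPM by night, where night and day overlapped. The single marker libraries went the other way, with 102 CPM by day and 49.8 CPM by night. In DCN day this member read 345, 693 and 711 CPM, against 138, 217 and 195 CPM in Sham day. That rise was called by edgeR near the limit (1.61, adjusted p = 0.0474). The SCGX day difference was not called (0.82, adjusted p = 0.0661). The member lowest against mixed tissue read 3.19 CPM in the gland and 823 CPM in mixed tissue.

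Many members stood at another level in untreated cultures than in the gland by day. Untreated cultured glands against Control day gave a median log2 ratio of -0.04 over the members and -0.06 over all genes, but the members spread further. At least 4-fold higher in culture were 23 members (7.37%, where 2.24% of genes were), and at least 4-fold lower were 15 (4.81%, where 1.59% were). The member with the greatest loss read a median of 3.98 CPM in Untreated cultures against 142 CPM in Control day, and that with the greatest gain 17.6 against 0.517 CPM. The cultures and the in vivo glands came from separate experiments with rats of different ages and sexes, so culture and experiment cannot be told apart.

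The 30 genes that met the culture limits but fell most at night had median culture ratios of -1.39 for NE and -1.34 for DBcAMP. Their median marker ratio of night against day was -1.5, and all 30 were at -0.5 or lower there. In culture against Control day they had a median of -1.28, where the members had -0.04. Of these 30, 3 were at least 8-fold higher in the pineal gland than in mixed tissue.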

How the data were processed

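Samples were grouped by their labels. The authors aligned stranded read-pairs to rn4 with STAR (2.3.1y in the submitters' processing notes) and assigned them to genes of Ensembl release 69 with HTSeq's union rule, exons only. The counts they deposited are raw, and the RPKM values deposited by the authors are these counts divided by gene length and library total. RPKM served for levels and lengths only.

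Comparisons were fitted to the 6 libraries concerned with edgeR 4.0.16 in R 4.3.3 (TMM, quasi-likelihood test, mean normalized count of at least 5, Benjamini-Hochberg over all genes tested, adjusted p under 0.05). DESeq2 1.42.0, other scalings, count filters, a replicate block and leaving out libraries were alternatives. The test was checked on simulated counts. An exact permutation test of 3 libraries against 3 cannot go below 0.1. Replicate pools differed beyond sampling noise (chi-square per degree of freedom 5.78 to 41.2 over 33 pairs), and p-values measure the spread between pools only. Members, rules and lists were chosen with earlier results of these data known. Genes were to be named by rank in culture, by change in each comparison, by level and by enrichment over mixed tissue. The tables list Ensembl identifiers, which could not be paired with symbols here, so at most 2 that fell and 2 that rose are printed, others are given by rank, and lists of pathway and cell type marker genes and sequences were not used here.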

Additional observations from a re-analysis of the deposited data

How the results depend on the processing

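Leaving out 1 library at a time gave between 60 and 91 members called in DCN night against Sham night (115 with all libraries), 71 and 133 in SCGX night against Sham night (142), 1 and 21 in DCN day against Sham day (19), 30 and 68 in SCGX day against Sham day (55), 1 and 11 in SCGX night against SCGX day (7), 0 and 0 in DCN night against DCN day (0), and 1 and 9 in NE against DBcAMP (9). Calls over all genes moved as well, in DCN night against Sham night from 1431 higher and 1290 lower to as few as 543 and 702. The number of members lay between 283 and 337 in the same exercise, but without 1 Untreated library 241 to 255 of the 312 (77.2% to 81.7%) were still members. The median over the members stayed above 0.5 in both night comparisons with Sham under DESeq2, every scaling and both count filters.

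With an adjusted p under 0.001, the counts were 3 in DCN night against Sham night, 9 in SCGX night against Sham night, 0 in DCN day against Sham day, 5 in SCGX day against Sham day, 0 in SCGX night against SCGX day and 0 in NE against DBcAMP. With all libraries of an experiment in 1 model they were 182 in DCN night against Sham night, 40 in DCN day against Sham day and 0 in SCGX night against SCGX day. DESeq2 gave 45 in DCN day against Sham day, beside 589 genes higher and 780 lower of 15930. It gave 16 in SCGX night against SCGX day, beside 316 and 268 of 15543 genes. In DCN night against DCN day it gave 2, beside 69 and 36 of 15822 genes. Without a filter on low counts, SCGX night against SCGX day gave 19, beside 366 and 292 of 21298 genes. Control day in place of Sham day, chosen after seeing the data, gave 39 for DCN, beside 578 and 563 of 15989 genes. For SCGX it gave 89, beside 1845 and 1795 of 15703 genes. The main fit with Sham day had called 181 and 226 genes in DCN and 1037 and 761 in SCGX. The cause of these shifts was not tested.

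Replicate numbers were not used as pairs in the main fits, since the labels give a sample number only. No comparison had every correlation of same-numbered deviations over 0.1 (range -0.128 to 0.169). With so few pools these correlations cannot show that no pairing existed. With the replicate number as a block, SCGX night against Sham night gave 92 calls, DCN day against Sham day 7 and NE against DBcAMP 4, and DCN night against Sham night gave 84. Over all genes the block gave, in the same order, 1084 higher and 1081 lower, 29 and 36, 128 and 458, and 735 and 883. Under the block the adjusted p of ENSRNOG00000005159 in SCGX night was 0.0575 and that of ENSRNOG00000028814 in DCN night 0.109.

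The number of members was 180 with TMM scaling and 111 with a limit of -1. For marker pineal glands, the median night against day ratio was -0.57 with a pseudocount of 1 CPM and -0.42 with median-of-ratios size factors. Counts of about 5 to 20 read-pairs, and single libraries without replicates, limit what can be said of the rarest members.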

Other observations

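One member, the highest of all in night against day ratio in Control (3.38), had both low and high pools within most groups. It read 0.0655, 0.194 and 4.90 CPM in Control day, 6.74, 7.36 and 6.23 CPM in Control night, 0.0624, 7.81 and 9.61 CPM in Sham day, and 7.08, 0.270 and 0.0709 CPM in Sham night. It read 0.126, 0.338 and 0.582 CPM in DCN day, 4.47, 5.07 and 0.592 CPM in DCN night, 0.318, 0.0713 and 0.215 CPM in SCGX day, and 3.39, 5.02 and 0.149 CPM in SCGX night. The median was thus higher at night in Control, DCN and SCGX and lower at night in Sham, and neither the DCN nor the SCGX difference passed the edgeR test (adjusted p = 0.471 and 0.102). In culture, where it was selected, it read 5.03, 1.90 and 6.96 CPM in Untreated, 1.51, 2.92 and 2.28 CPM in NE and 0.319, 2.92 and 1.44 CPM in DBcAMP, so these groups overlapped, and its membership rests on the medians.

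The fifth strongest member in culture read 58.3, 74.3 and 63.5 CPM in Control day and 28, 31.7 and 25.7 CPM in Control night, and its DCN values were 25.3, 33.7 and 51.7 CPM by day and 37.2, 34.7 and 14 CPM by night. In SCGX it read 44.2, 17.3 and 20.3 CPM by day and 22.5, 24.6 and 24.5 CPM by night, and against 82.7, 63.0 and 110 CPM in Sham day the SCGX day change was -1.61 (edgeR adjusted p = 0.0245). All of its DCN and SCGX values lay below its Control day values. The other edgeR comparisons with Sham did not call it, with adjusted p of 0.0752 in DCN day, 0.682 in DCN night and 0.2 in SCGX night. The single marker library of pineal glands at ZT7 read 205.5 CPM, well above Control day.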
